A study of Homo sapiens with 6 samples.

Results

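The let-7 family is represented here by its mature guide strands, the 5p entries of let-7a, let-7b, let-7c, let-7d, let-7e, let-7f, let-7g and let-7i together with that of miR-98. These 9 entries were taken by name from the 2575 mature miRNA entries of each library, and all 9 had enough counts to be tested. The libraries hold small RNA from exosomes, the small vesicles that cells release, collected from HCT116, a human colorectal cancer line at passage 16 to 19. ETBF, the enterotoxigenic form of the colon bacterium Bacteroides fragilis, secretes a toxin that leads to cleavage of E-cadherin. In 3 libraries, titled ETBF, the donor cells had shared their culture for 6 h with ETBF at a multiplicity of infection of 500. In the other 3, titled untreated, the cells received bacterial medium without the bacterium. The names of the deposited files give the opposite group to the sample titles in 6 of 6 libraries. Groups here follow the titles, and should the file names be correct, each "higher" below becomes "lower" and the reverse, with no effect on sizes, errors or p-values.

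The let-7 miRNAs are cut from hairpin precursors by Drosha and Dicer, and the 5p arm is the strand that is usually loaded into Argonaute to repress messenger RNAs, among them those of RAS, MYC and HMGA2. Family members are held back in embryonic cells by LIN28, which blocks their maturation, and are abundant in differentiated epithelium. Because targets are chosen mainly through the seed, members with the same seed are expected to share many targets.

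The 9 mature sequences (RefSeq, GRCh38.p14) are shown because they differ so little that the family can be read as variants of a single sequence. The seed, bases 2 to 8, is in capitals.
hsa-let-7a-5p: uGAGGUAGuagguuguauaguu
hsa-let-7b-5p: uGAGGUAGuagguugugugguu
hsa-let-7c-5p: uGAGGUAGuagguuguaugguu
hsa-let-7d-5p: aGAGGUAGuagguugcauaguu
hsa-let-7e-5p: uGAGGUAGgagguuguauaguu
hsa-let-7f-5p: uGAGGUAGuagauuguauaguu
hsa-let-7g-5p: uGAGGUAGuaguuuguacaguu
hsa-let-7i-5p: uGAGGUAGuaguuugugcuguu
hsa-miR-98-5p: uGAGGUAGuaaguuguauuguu

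All 9 are 22 bases long and carry the same seed, so no difference in length enters a comparison of their counts. Other effects of sequence on the counts were not measured. With bases counted from 1 at the 5′ end and let-7a-5p as the reference, let-7c-5p differs by A19G, let-7e-5p by U9G and let-7f-5p by G12A alone. let-7g-5p carries G12U and U18C, and let-7i-5p carries G12U, A17G, U18C and A19U. Of the 36 pairs of members, 4 differ at 1 base (let-7a with let-7c, let-7e or let-7f, and let-7b with let-7c). How the counting dealt with reads that match such a neighbour with 1 mismatch is not given in the sources used here, so the levels of let-7a-5p, let-7b-5p, let-7c-5p, let-7e-5p and let-7f-5p are less certain than those of the other members.

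The 9 guides come from 12 hairpins on 8 chromosomes. let-7a-5p is encoded at 3 loci and let-7f-5p at 2, and the remaining members at 1 locus each. The hairpin of let-7i lies at chr12:62603686-62603769 on the plus strand, in an intron of the lincRNA AC048341.1, and that of let-7g at chr3:52268278-52268361 on the minus strand, in an intron of WDR82, a subunit of histone methyltransferase complexes. Coordinates are those of GRCh38.p14 and host genes those of GENCODE release 29. The submitters' build was GRCh37.p5. Both hairpins are printed with the guide in capitals, because they encode the members whose level differed most.
let-7g hairpin: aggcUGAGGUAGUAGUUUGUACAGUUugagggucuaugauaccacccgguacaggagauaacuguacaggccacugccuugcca
let-7i hairpin: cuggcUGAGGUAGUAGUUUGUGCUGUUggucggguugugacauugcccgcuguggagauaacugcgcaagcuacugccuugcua

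Library totals ran from 221981 to 417321 counts in the titled ETBF libraries and from 200207 to 368923 in the titled untreated libraries. Of all entries, 195 passed the filter on low counts, and levels are given as CPM (counts scaled to a common library depth) relative to a TMM-scaled library size. The colorectal epithelial miRNAs were present: the summed level of 9 markers, the miR-200 family with miR-192, miR-194, miR-215 and miR-375, was 28877 to 32481 CPM in titled ETBF libraries and 33140 to 34664 CPM in titled untreated libraries (8 of 9 tested, 1 lower, 7 not passing, where 3.59% of all tested entries were lower). Muscle markers (4 of 4 tested, 0 passing) summed to 15397 to 18775 CPM in titled ETBF libraries and 19536 to 20919 CPM in titled untreated libraries. The 7 blood-cell markers (5 tested, 0 passing) summed to 527.8 to 693.8 CPM in titled ETBF libraries and 669.3 to 729.2 CPM in titled untreated libraries. The liver miRNA miR-122-5p stood at 4804 to 5062 CPM in titled ETBF libraries and 5420 to 6556 CPM in titled untreated libraries. None of these summed levels was at 0 in any library, and their part in the results below was not tested.

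The 9 guides together made up a larger share of the counts in the titled ETBF libraries. The share was 15.1%, 13.1% and 11.4% in titled ETBF replicates 1, 2 and 3, against 9.24%, 9.80% and 9.78% in titled untreated replicates 1, 2 and 3. Every titled ETBF library lay above every titled untreated library, and the spread was wider in the titled ETBF group. The means were 13.2% ± 1.86 and 9.61% ± 0.314 (SD, n = 3 per group), a difference of 3.58 percentage points. The exact 95% binomial intervals, which cover counting error only, were narrow: 14.9% to 15.2% for the first titled ETBF library and 9.12% to 9.37% for the first titled untreated library.

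Much of that difference moved with entries that overlap structural RNAs. miR-7641, miR-6087, miR-1246 and the other entries of that list took 0.691% ± 0.209 of the counts in titled ETBF libraries and 21.0% ± 6.45 in titled untreated libraries (SD, n = 3). With those entries left out of the totals, the 9 guides held 15.2%, 13.2% and 11.4% in titled ETBF replicates 1 to 3, against 12.9%, 11.7% and 11.99% in titled untreated replicates 1 to 3. The groups then overlapped, and the difference was 1.10 percentage points. The TMM scale is set by the bulk of the entries. On it the summed level was 127154, 131512 and 146831 CPM in titled ETBF libraries. It was 90036, 99862 and 91864 CPM in titled untreated libraries, and the groups did not overlap. Titled ETBF replicate 3, with a TMM factor of 0.776, had the lowest share of its group but the highest summed CPM. For titled ETBF replicate 1, with a factor of 1.19, the reverse held. Whether the groups overlapped thus depended on the totals and the scaling used. No test was made on these sums.

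The members differed in their values. let-7g-5p and let-7i-5p were higher in the titled ETBF libraries, and the other 7 members did not pass the threshold of an adjusted p of 0.05 (edgeR, adjusted over all 195 tested entries). Of all tested entries, 10.8% passed in that direction and 3.59% in the other, against 2 and 0 of the 9 members. The median log2 fold change of the 9 was 0.25 and that of all tested entries -0.03. On the CPM scale 5 members had groups that did not overlap with titled ETBF higher and 1 with titled ETBF lower, where 19.5% of tested entries did so in each direction.

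hsa-let-7g-5p, from the WDR82 intron, had 7250, 6065 and 9978 counts in titled ETBF replicates 1 to 3 and 2972, 6193 and 4703 counts in titled untreated replicates 1 to 3. Scaled for depth these were 24416, 27361 and 30904 CPM, against 14459, 17105 and 15061 CPM. The lowest titled ETBF library stood well above the highest titled untreated library. The fold change was 1.77, with a log2 fold change of 0.83 (SE 0.12, edgeR adjusted p = 0.00249).

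hsa-let-7i-5p, the only member with a hairpin on chromosome 12, had 10045, 9362 and 15717 counts in titled ETBF libraries and 4051, 9448 and 7243 counts in titled untreated libraries. Its levels were 33829, 42234 and 48679 CPM, against 19708, 26095 and 23196 CPM. Here too the groups did not overlap, although titled ETBF replicate 1 was the lowest of its group, as it was for let-7g-5p. The fold change was 1.81, with a log2 fold change of 0.85 (SE 0.16, edgeR adjusted p = 0.00885). Without titled ETBF replicate 1 the log2 fold changes were 0.88 for let-7g-5p and 0.95 for let-7i-5p. Without titled ETBF replicate 3 they fell to 0.73 and 0.72, and let-7i-5p passed by a small margin (edgeR adjusted p = 0.0119 and 0.041).

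**Figure D1:**
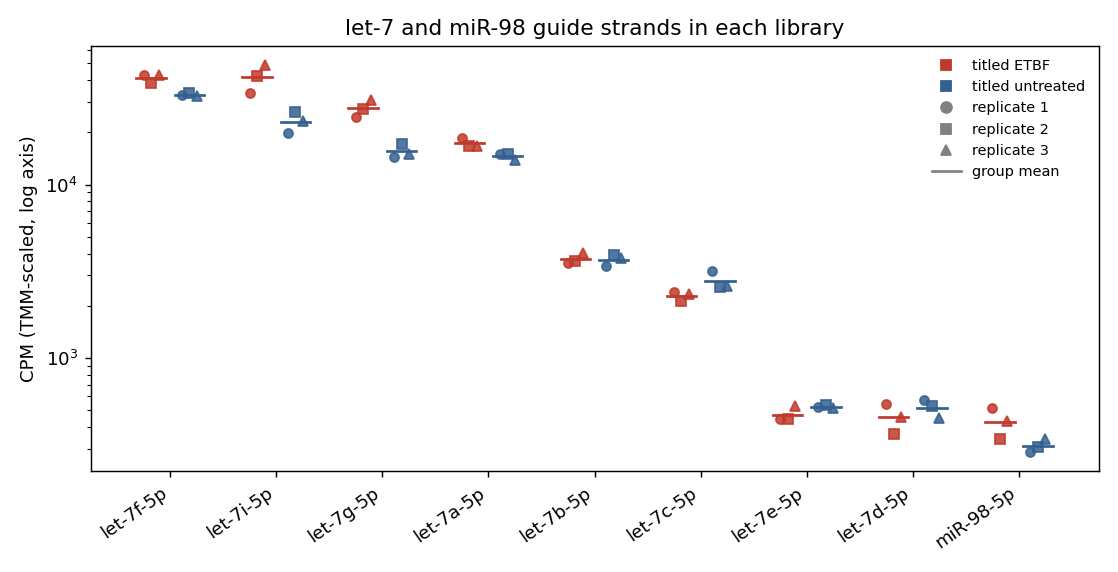
Level of each let-7 and miR-98 guide strand in every library, in CPM on a log axis, with members ordered by their level in titled untreated libraries; points are libraries, bars are means of 3. let-7i-5p reached 33829 to 48679 CPM in titled ETBF libraries and 19708 to 26095 CPM in titled untreated libraries, while the groups of let-7b-5p overlap.

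hsa-let-7f-5p and hsa-let-7a-5p, the members encoded at several loci, showed smaller differences. let-7f-5p stood at 42995, 38314 and 42714 CPM in titled ETBF libraries and 32960.0, 33749 and 32169 CPM in titled untreated libraries. The groups did not overlap, yet the log2 fold change of 0.33 (SE 0.11) missed the threshold (edgeR adjusted p = 0.0746; 0.0462 with the counts of let-7a-5p and let-7f-5p divided by their number of loci). It passed in 4 of 17 settings, among them the tests of DESeq2 and limma-voom. let-7a-5p, the member conserved without change from worms to humans, had 18489, 16719 and 16744 CPM in titled ETBF libraries and 14969, 15083 and 13755 CPM in titled untreated libraries. It also had groups that did not overlap, with a log2 fold change of 0.25 (SE 0.10, edgeR adjusted p = 0.111), which was 0.15 without titled untreated replicate 3 (edgeR adjusted p = 0.495).

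hsa-miR-98-5p, which lies beside let-7f-2 in an intron of the ubiquitin ligase gene HUWE1 on chromosome X, was the least abundant member. It had 153, 76 and 139 counts in titled ETBF libraries and 59, 111 and 106 counts in titled untreated libraries, or 515.3, 342.9 and 430.5 CPM against 287.0, 306.6 and 339.5 CPM. The groups were separated by a narrow margin, and the log2 fold change of 0.47 (SE 0.16) did not pass (edgeR adjusted p = 0.0773). Without titled ETBF replicate 2 it was 0.63 and passed (edgeR adjusted p = 0.0389), where 9.05% of entries passed as higher. Without titled ETBF replicate 1 it was 0.29 (edgeR adjusted p = 0.183). With all 6 libraries the 95% interval of the difference ran from 0.10 to 0.84 on the log2 scale.

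hsa-let-7b-5p, hsa-let-7d-5p and hsa-let-7e-5p had overlapping groups. let-7b-5p averaged 3729 ± 276.6 CPM in titled ETBF libraries and 3687 ± 261.2 CPM in titled untreated libraries (SD, n = 3). Its log2 fold change was 0.02 (SE 0.09), and the 95% interval ran from -0.20 to 0.23. let-7d-5p averaged 456.5 ± 90.1 and 517.6 ± 63.8 CPM in titled ETBF and titled untreated libraries, and let-7e-5p 472.1 ± 49.8 and 524.0 ± 10.5 CPM. The log2 fold change was -0.16 for let-7d-5p (SE 0.16, edgeR adjusted p = 0.524) and -0.15 for let-7e-5p (SE 0.11, edgeR adjusted p = 0.417). Both values moved when single libraries were left out, and neither member passed in any of those 6 fits. Leaving out one titled ETBF library, let-7d-5p had -0.34 (replicate 1) or -0.0003 (replicate 2), and leaving out one titled untreated library it had -0.07 (replicate 1) or -0.32 (replicate 3). let-7e-5p had -0.07 when titled ETBF replicate 2 was left out, -0.25 when replicate 3 of that group was, and -0.22 when titled untreated replicate 3 was. The sign of let-7b-5p depended on the scaling, being negative with library size alone.

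hsa-let-7c-5p was the only member whose titled ETBF libraries all lay below the titled untreated ones. Its levels were 2391, 2120.3 and 2326 CPM in titled ETBF libraries, against 3162, 2558 and 2613 CPM in titled untreated libraries. The log2 fold change was -0.28 (SE 0.10), which did not pass (edgeR adjusted p = 0.0922). Without titled ETBF replicate 1 it was -0.35 and passed (edgeR adjusted p = 0.0313), a fit in which 10% of entries passed as lower. It was -0.20 when titled ETBF replicate 2 was left out and -0.16 when titled untreated replicate 1 was (edgeR adjusted p = 0.374 and 0.442). In a bulk exosome preparation, a miRNA packed more densely and a larger number of vesicles that carry it cannot be told apart, for this or any other member.

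In counts not divided by loci, let-7f-5p led in every titled untreated library, while the leading member varied among titled ETBF libraries. There the counts of let-7i-5p were 0.787, 1.1 and 1.14 times those of let-7f-5p, in order of replicate. With counts divided by loci, let-7i-5p led in both groups, at 40.2% and 33.9% of the 9-member sum. In titled ETBF libraries let-7i-5p (41581 ± 7447 CPM) and let-7f-5p (41341 ± 2625 CPM) did not differ beyond their spread, and let-7g-5p (27560.3 ± 3249 CPM) stood clear of let-7a-5p (17317 ± 1015 CPM). In titled untreated libraries let-7f-5p (32959 ± 789.7 CPM) led let-7i-5p (22999.7 ± 3198 CPM), while let-7g-5p (15542 ± 1387 CPM) and let-7a-5p (14602 ± 736.3 CPM) overlapped. let-7b-5p and let-7c-5p came next in both groups. let-7e-5p, let-7d-5p and miR-98-5p closed the order, overlapping in titled ETBF libraries, while in titled untreated libraries miR-98-5p was below the other two in every library.

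Composition within the family does not depend on how libraries are scaled. let-7i-5p made up 26.6%, 32.1% and 33.2% of the 9-member counts in titled ETBF libraries, against 21.9%, 26.1% and 25.3% in titled untreated libraries. let-7g-5p made up 19.2%, 20.8% and 21.1% against 16.1%, 17.1% and 16.4%. Together they held 51.0% ± 4.52 in titled ETBF libraries and 41.0% ± 2.72 in titled untreated libraries (SD, n = 3). For let-7i-5p the lowest titled ETBF library was above the highest titled untreated library by less than the spread within either group.

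The shares of let-7a-5p, let-7b-5p, let-7c-5p, let-7d-5p and let-7e-5p were lower in every titled ETBF library than in any titled untreated library. When some shares of a fixed sum rise, others must fall, so a lower share is not by itself a lower level. In CPM, let-7a-5p was higher in every titled ETBF library and only let-7c-5p was lower in every one, and neither passed. The CPM groups of let-7b-5p, let-7d-5p and let-7e-5p overlapped. let-7b-5p held 2.76% ± 0.0145 in titled ETBF libraries and 3.93% ± 0.165 in titled untreated libraries, and let-7c-5p 1.69% ± 0.164 and 2.97% ± 0.488 (SD, n = 3). let-7f-5p held 30.7% ± 2.72 and 35.1% ± 1.41, with overlapping groups. With counts divided by loci, let-7i-5p was the leading member in both groups, at 40.2% ± 3.44 and 33.9% ± 2.53, and let-7f-5p held 20.2% ± 2.45 and 24.4% ± 1.41.

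**Figure D2:**
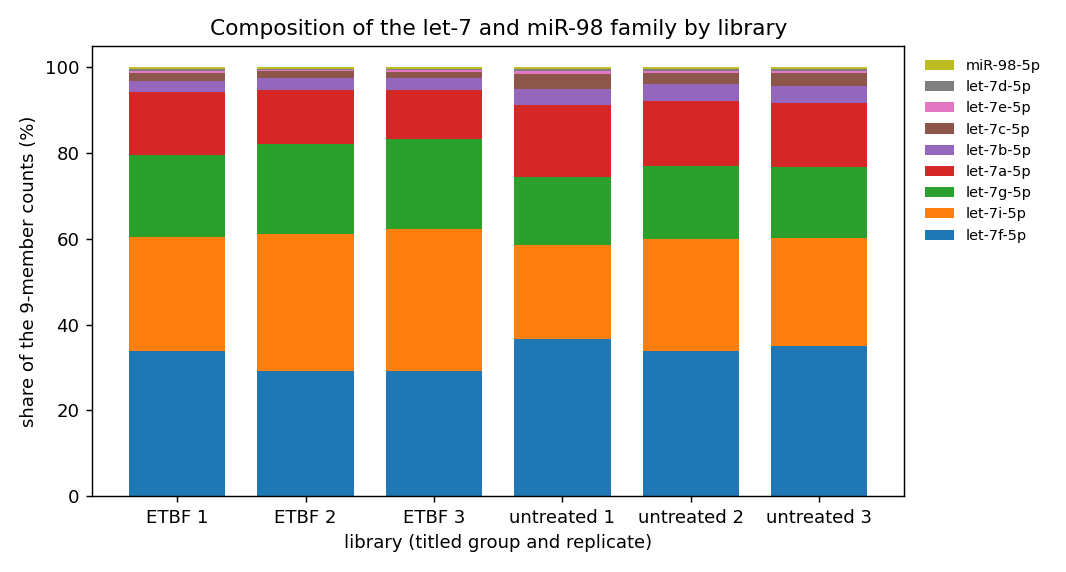
Share of the 9-member counts held by each member, in percent, for every library, with titled ETBF libraries on the left. let-7i-5p and let-7g-5p together take 51.0% on average in titled ETBF libraries and 41.0% in titled untreated libraries.

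Ratios between members of a library show the same contrast free of scaling. The ratio of let-7i-5p to let-7a-5p was 1.83, 2.53 and 2.91 in titled ETBF libraries and 1.32, 1.73 and 1.69 in titled untreated libraries. That of let-7g-5p to let-7a-5p was 1.32, 1.64 and 1.85 against 0.966, 1.13 and 1.09. Neither ratio overlapped between groups, and titled ETBF replicate 1 was the nearest to the titled untreated libraries in both. The ratio of let-7i-5p to let-7g-5p was 1.39, 1.54 and 1.58 in titled ETBF libraries and 1.36, 1.53 and 1.54 in titled untreated libraries, so that these members kept nearly the same proportion. let-7f-5p to let-7a-5p, at 2.39 ± 0.141 and 2.26 ± 0.0710 (SD, n = 3), also overlapped.

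**Figure D3:**
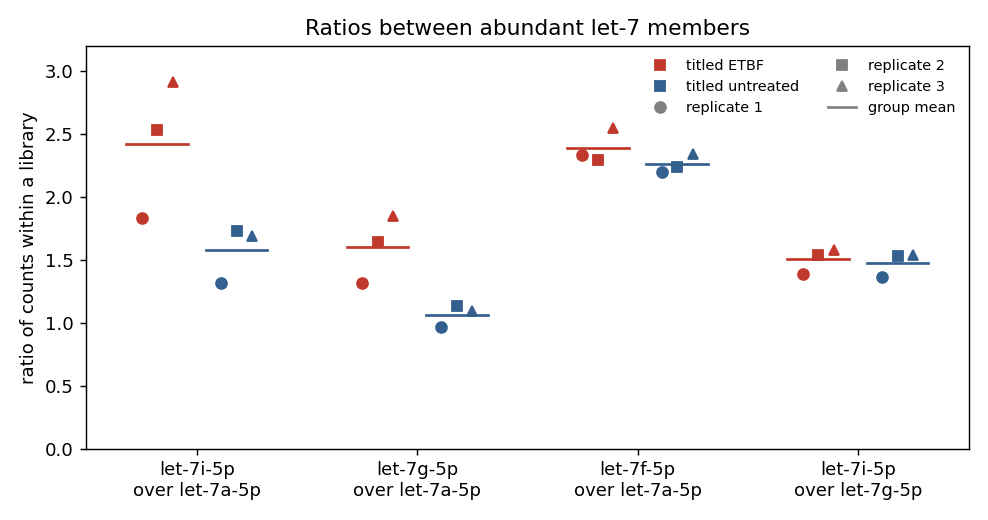
Ratios of counts between members within each library, with points for libraries and bars for means of 3. let-7i-5p over let-7a-5p and let-7g-5p over let-7a-5p are separated by group (2.42 and 1.58, and 1.60 and 1.07, on average), while let-7i-5p over let-7g-5p is not (1.501 and 1.48).

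The same question was put to the model by scaling each library on its 9-member sum, so that a fold change is relative to the family as a whole. Then let-7b-5p, let-7c-5p, let-7d-5p and let-7e-5p were lower in titled ETBF libraries, with log2 fold changes of -0.51, -0.81, -0.68 and -0.67 (SE 0.12, 0.14, 0.17 and 0.14; edgeR adjusted p = 0.00141, 0.000158, 0.00318 and 0.000798). This scaling shifted the median of all tested entries to -0.55, and 57.9% of them passed as lower, so that these members moved with the bulk of the entries. let-7g-5p and let-7i-5p were at 0.30 and 0.33 and did not pass (edgeR adjusted p = 0.0646 and 0.0707, where 5.64% of entries passed as higher). Together they held on average 51.0% of that sum in titled ETBF libraries and 41.0% in titled untreated libraries. Their own difference therefore enters the scale and lowers these values, so that the lack of a pass is partly built in.

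**Figure D4:**
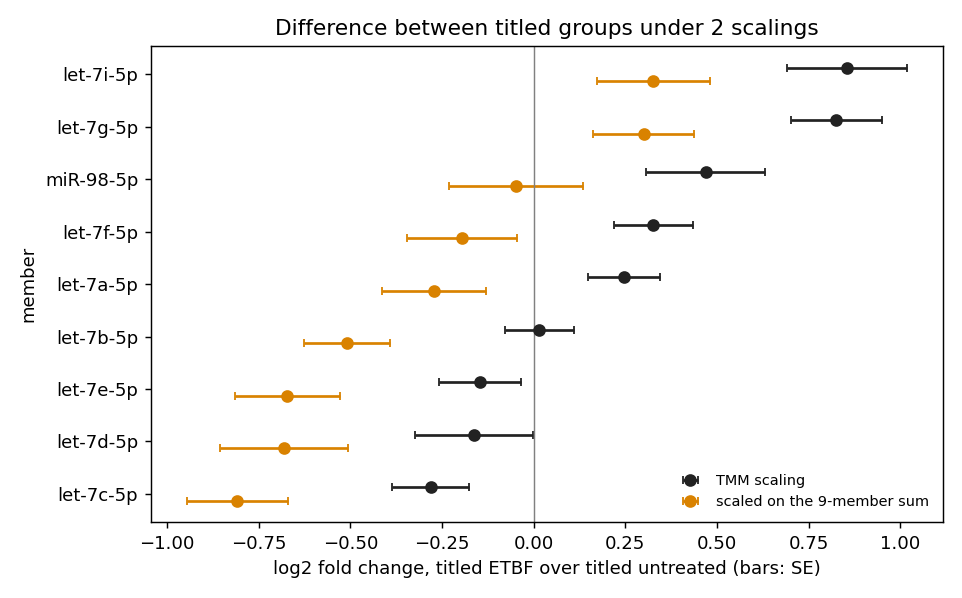
log2 fold change of each member, titled ETBF over titled untreated, with TMM scaling and with scaling on the 9-member sum; bars are standard errors. let-7i-5p and let-7g-5p stand highest under both scalings (0.85 and 0.83 with TMM), and let-7c-5p lowest (-0.28 and -0.81).

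The differences were also set beside the sequences. The 4 members that differ from let-7a-5p at base 11 or 12, which are let-7f-5p, let-7g-5p, let-7i-5p and miR-98-5p, had log2 fold changes from 0.33 to 0.85. The 4 that differ from it only at other bases, which are let-7b-5p, let-7c-5p, let-7d-5p and let-7e-5p, had values from -0.28 to 0.02, and let-7a-5p lay between at 0.25. let-7g-5p and let-7i-5p, printed above, are the members with G12U. This grouping was made after the values were seen and was not tested, and members derived from common ancestors are not independent.

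Passenger strands, the 3p arms that are mostly discarded after processing, were scarce. Of 11 passenger entries 2 were tested, and miR-98-3p was at 0 in every library, which allows a share of up to 0.466% of the counts of its hairpin. let-7a-3p had 22, 29 and 26 counts in titled ETBF libraries and 26, 26 and 20 in titled untreated libraries, and let-7d-3p had 23, 23 and 30 against 22, 27 and 35. Neither passed (log2 fold change 0.15 with SE 0.33, and -0.09 with SE 0.24; edgeR adjusted p = 0.762 and 0.805). let-7d stood apart in its arms: over the 6 libraries 16.0% of its counts came from the 3p arm, against 0.591% for let-7a and 0.0143% for let-7i. let-7g-3p had 0 counts in the titled ETBF libraries and 2 in the titled untreated libraries, all in replicate 1, too few to compare with the difference in its guide.

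Other miRNAs with the let-7 seed were looked for among the entries with a RefSeq sequence. miR-4458 and miR-4500, which share bases 2 to 8, had 0 counts in all 6 libraries, as did miR-202-3p, a relative whose seed differs. The floor of 3 counts stood at 9.29 to 13.5 CPM in titled ETBF libraries and 8.29 to 14.6 CPM in titled untreated libraries. No carrier of the let-7 seed other than the 9 guides was detectable among them at this depth.

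Several let-7 hairpins lie in clusters with miR-99/100 and miR-125 relatives, miRNAs that include repressors of mTOR. The 5 neighbours were all tested: 1 was higher, 1 lower and 3 did not pass, where 10.8% of all tested entries were higher and 3.59% lower. miR-100-5p, which shares its cluster on chromosome 11 and the host MIR100HG with let-7a-2, had 20516, 30379 and 29272 CPM in titled ETBF libraries against 6388, 9394 and 7084 CPM in titled untreated libraries, a log2 fold change of 1.81 (SE 0.19, edgeR adjusted p = 0.000259). It exceeded the value of let-7a-5p, 0.25, though that entry pools 3 loci and the part of let-7a-2 in it cannot be read out. miR-125b-5p, from the same cluster and from that on chromosome 21, had -0.22 (SE 0.11, edgeR adjusted p = 0.180), which was -0.14 when titled untreated replicate 1 was left out and -0.37 when replicate 3 of that group was.

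On chromosome 21 let-7c-5p (-0.28) lay with miR-99a-5p, which was lower with -0.39 (SE 0.09, edgeR adjusted p = 0.0269). miR-99a-5p averaged 1316 ± 99.7 CPM in titled ETBF libraries and 1725 ± 107.8 CPM in titled untreated libraries (SD, n = 3). That call held in 12 of 17 settings and was lost without titled ETBF replicate 2, titled untreated replicate 1 or titled untreated replicate 3, with edgeR adjusted p of 0.129, 0.0854 and 0.0542. It was also lost with library size only and with upper-quartile scaling (edgeR adjusted p = 0.187 and 0.0786). On chromosome 19, let-7e-5p (-0.15) lay with miR-99b-5p at -0.13 (SE 0.08) and miR-125a-5p at -0.37 (SE 0.16), neither of which passed (edgeR adjusted p = 0.332 and 0.147). miR-125a-5p had -0.63 and passed without titled ETBF replicate 1 (edgeR adjusted p = 0.00172, where 10% of entries passed as lower), and -0.24 without titled ETBF replicate 2 (edgeR adjusted p = 0.504). miR-99b-5p had -0.08 when titled ETBF replicate 2 or titled untreated replicate 2 was left out, and -0.19 when titled untreated replicate 3 was. All the measured guides of these last 2 clusters had negative values. So did every tested entry from rank 95 to rank 195 by log2 fold change, ranked from the highest, and the median of all was -0.03. The value of miR-125b-5p also pools the chromosome 11 locus. Of the 6 passenger entries of the neighbours, miR-99b-3p, from the chromosome 19 cluster, was the only one tested. It had the opposite sign to its guide, 0.78 (SE 0.30), and did not pass (edgeR adjusted p = 0.0939).

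**Figure D5:**
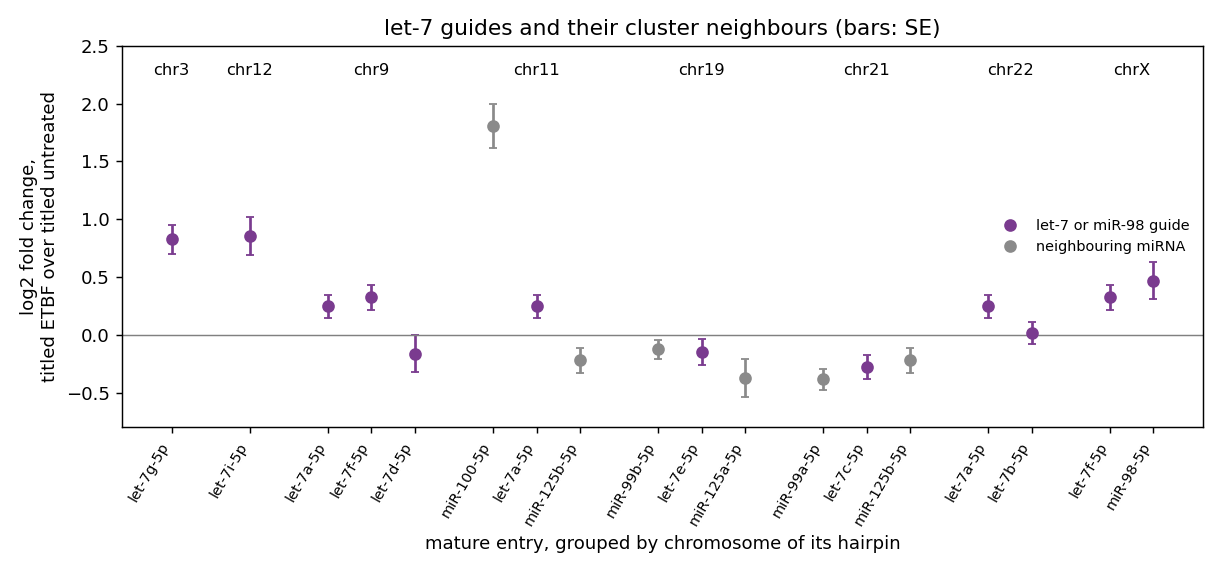
log2 fold change, titled ETBF over titled untreated, of let-7 guides and neighbouring miRNAs, grouped by the chromosome of their hairpins; bars are standard errors, and entries encoded at several loci appear in each cluster. The guides of the chromosome 19 and 21 clusters lie below 0, and miR-100-5p reaches 1.81. let-7g-5p and let-7i-5p, on chromosomes of their own, stand at 0.83 and 0.85.

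Entries outside the family with the most similar profile were found by the root mean square difference of mean-centred log2 CPM over the 6 libraries. For the 9-member sum they were miR-92b-3p, miR-183-5p and miR-423-5p, at 0.0450, 0.1004 and 0.102 log2 units. For let-7g-5p, the member with the smallest p, they were miR-148b-3p, miR-423-5p and miR-186-5p, at 0.120, 0.146 and 0.162. The likeness is a description of 6 libraries that fall into 2 groups, and was taken among 185 entries.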

How the data were processed

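Exosomal small RNA of HCT116 cells was sequenced in 6 libraries made from 100 ng of total RNA each, per the labels' protocols. FastQC, Trimmomatic and featureCounts are named, with GRCh37.p5 as the build, per the submitters' processing notes. The sources used here do not give versions, aligner, miRNA annotation or the handling of multiply mapped reads. The deposited values are raw counts per mature entry. Some reads appear at more than 1 locus: miR-199a-3p held 2 to 2.002 times the counts of miR-199b-3p, which has the same sequence. let-7a-5p counts were whole multiples of 3 in 2 of 6 libraries and let-7f-5p counts whole multiples of 2 in 0 of 6.

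Counts were filtered with filterByExpr (minimum count 10; 195 tested, 2380 untested entries, 99.6% to 99.8% of counts kept), scaled with TMM factors of 0.776 to 1.19, and compared by the two-sided quasi-likelihood test of edgeR 4.0.16 (R 4.3.3), p-values being adjusted after Benjamini and Hochberg over all tested entries, with a threshold of 0.05. SE was derived as |log2 fold change| divided by √F, and intervals use a t quantile of 2.268. The biological coefficient of variation was 12.9%. Shares and ratios are descriptions without a test, since 3 against 3 libraries cannot go below an exact permutation p of 0.1. Alternatives used DESeq2 1.42.0 and limma 3.58.1. Replicates of a group differed by more than sampling noise (chi-square over degrees of freedom 12.9 to 139.9), so none was counted as a repeat deposit. The labels do not say that libraries came from separate cultures, so p-values may measure technical spread. Scripts were tested on simulated data. The members and lists were chosen with earlier results of these data known. The named entries are the 9 guides, their passengers, seed sharers and cluster neighbours, and the 3 nearest entries. The binomial intervals and the floor of 3 counts cover counting error only, since no molecular identifiers are given.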

Additional observations from a re-analysis of the deposited data

How the results depend on the processing

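let-7g-5p and let-7i-5p passed in 17 of the 17 settings other than scaling on the 9-member sum, with log2 fold changes of 0.73 to 0.90 and 0.72 to 0.95 and adjusted p up to 0.0129 and 0.041. let-7f-5p and miR-98-5p passed in 4 of 17 and let-7c-5p in 1. The main 28 calls became 124 with scaling on the 9-member sum and 51 with no filter, and 17 to 59 when single libraries were left out: 59 without titled ETBF replicate 1, and 17 without titled ETBF replicate 3 or titled untreated replicate 3. Members passing were 2 in the main setting. With scaling on the 9-member sum they were 4 (all lower), and with structural RNA entries left out 4 (all higher). Without single libraries they were 2 to 3. Over all entries, 21 of 195 passed as higher in the main setting and 30 of 195 with structural RNA entries left out. With scaling on the 9-member sum 113 of 195 passed as lower, and without single libraries 12 of 206 to 38 of 210 passed as higher. Higher calls made up 75% in the main setting, 85.7% with upper-quartile scaling, 88.2% without structural RNA entries, 8.87% with scaling on the 9-member sum and 64.4% without titled ETBF replicate 1. Excess of the family in library counts fell to 1.097 percentage points without structural RNA entries and was 2.64 to 4.498 without single libraries. let-7b-5p turned negative with library size only (-0.0528) and the 10 CPM filter (-0.0091), and ran from -0.0527 to 0.0716 without single libraries. Scaling on the 9-member sum turned let-7a-5p (-0.27), let-7b-5p (-0.51), let-7f-5p (-0.20) and miR-98-5p (-0.0479) negative, which follows from its construction; the other causes were not tested. Same-numbered libraries were not shown to be paired (correlations of deviations 0.146, 0.0688 and -0.0112, and titled ETBF replicate 3 correlated best with number 2), and the replicate block gave 38 calls, with the same 2 members. Of the 11 passenger entries, 9 had too few counts to be tested.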
